A study of Mus musculus with 16 samples.

Results

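The heat shock genes described here are 10 cytosolic and mitochondrial chaperone genes, Hspa1a, Hspa1b, Hspa8, Hsp90aa1, Hsp90ab1, Hsph1, Hspb1, Hspe1, Dnaja1 and Dnajb1, taken by gene symbol from a table of RNA-Seq read counts for 55385 genes. All 10 were in the table and all 10 passed the filter on low counts, which left 14513 genes for testing. The RNA came from CD11b+ cells bound on magnetic columns from perfused brains of female mice, 20 weeks old by the labels, in 16 libraries with 4 in each of 4 genotypes. WT mice carried both Card9 alleles and no transgenes, and Card9-/- mice lacked Card9, the gene of an adaptor protein for innate immune receptors. The 5xFAD mice carried both Card9 alleles and human transgenes with mutations of familial Alzheimer's disease, which are driven by a neuronal promoter, and Card9-/-5xFAD mice carried the transgenes and the deletion. The study asked how CARD9 loss changes the microglial response to amyloid. The 10 genes follow chaperone RNA across these genotypes and between libraries of 1 genotype.

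Heat shock proteins bind unfolded proteins and help them to fold, and many of their genes are switched on by the transcription factor HSF1 when cells meet heat, oxidants or other protein damage. Hsp70 proteins work in cycles set by J proteins, which deliver clients, and by exchange factors, which release them, and Hsp90 proteins finish the folding of kinases and receptors. Microglia are the resident macrophages of the brain, and dissociation of brain tissue with warm enzyme digestion is known to induce heat shock and early response genes in them. The study loosened the brains with papain and DNase in warm buffer before the column. No unsorted or undigested sample was part of the libraries, so a contribution of the isolation to the levels below was not tested.

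Between 2970148 and 19333325 reads per library were counted on genes. The 9 microglia markers (P2ry12, Tmem119, Cx3cr1, Csf1r, Sall1, Fcrls, Siglech, Itgam and Aif1) summed to between 14164 and 29216 CPM (counts scaled to 1000000 per library), and the 8 neuron markers to between 1.83 and 18.3 CPM. 4 libraries, 1 in each genotype, had the lowest microglia sums, 14164 to 18067 CPM against 18140 to 29216 CPM in the other 12, so the line between them is narrow, with Card9-/-5xFAD replicate 3 at 18140 CPM and Card9-/- replicate 2 at 18633 CPM just above it. These were WT replicate 1, Card9-/- replicate 4, 5xFAD replicate 1 and Card9-/-5xFAD replicate 4, and they had 2970148 to 7188423 counted reads. The neutrophil markers summed to 2091 to 6301 CPM in these 4 and to 487 to 2392 CPM in the other 12, and the choroid plexus or ependymal markers to 1205 to 3000 CPM against 3.16 to 1190 CPM. Card9 itself was counted in every library, at 13.6 to 51.3 CPM in WT, 16.7 to 34.8 CPM in the libraries labelled Card9-/-, 15.6 to 33.5 CPM in 5xFAD and 9.73 to 33.7 CPM in those labelled Card9-/-5xFAD. Its summed count, which covers the whole gene, does not separate the labelled deletion from the intact gene, and the names Card9-/- and Card9-/-5xFAD below are those of the labels.

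HSF1 binds repeats of the unit GAA in alternating orientation, and the start regions of the genes differ in this respect. The sequences below are the 150 bases before the RefSeq start site on GRCm38.p6, 5′ to 3′ on the strand of the gene, with capitals where a pair of alternating units stands (GAANNTTC or TTCNNGAA, each of which reads the same on both strands). They are shown because Hspa1a and Hspa1b on the one side and Hspe1 on the other moved differently among the libraries. The stretch of Hspa1a lies at chr17:34972157-34972306 on the minus strand, Hspa1b at chr17:34959239-34959388 on the minus strand, Hspb1 at chr5:135887769-135887918 on the plus strand and Hspe1 at chr1:55087998-55088147 on the plus strand.
Hspa1a: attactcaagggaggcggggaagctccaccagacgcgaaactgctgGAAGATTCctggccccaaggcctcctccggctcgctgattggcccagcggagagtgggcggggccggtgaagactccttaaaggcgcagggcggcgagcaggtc
Hspa1b: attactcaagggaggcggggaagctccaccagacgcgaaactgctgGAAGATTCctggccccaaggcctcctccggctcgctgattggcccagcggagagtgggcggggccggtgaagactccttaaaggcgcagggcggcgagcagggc
Hspb1: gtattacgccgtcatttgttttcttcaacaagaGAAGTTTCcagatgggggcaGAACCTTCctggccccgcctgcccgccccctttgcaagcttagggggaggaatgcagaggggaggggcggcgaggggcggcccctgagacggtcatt
Hspe1: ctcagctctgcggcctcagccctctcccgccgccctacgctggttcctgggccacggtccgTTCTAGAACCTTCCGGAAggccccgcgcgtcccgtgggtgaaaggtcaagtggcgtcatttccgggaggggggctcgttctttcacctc
The Hspa1a and Hspa1b stretches were identical at 149 of 150 positions. Each held 1 pair of units, which began 104 bases before the start, and Hspb1 held 2 separate pairs, which began 117 and 97 bases before it. In Hspe1 the pairs overlapped in 1 run that held 3 pairs and 2 matches to 3 alternating units (GAANNTTCNNGAA or TTCNNGAANNTTC, the reverse complement of each other). RefSeq windows of 300 bases were at hand for 7 of the 10 genes, and among them Hsph1 also held 3 alternating units, after its start. Dnaja1 held 1 pair in 1 of its 3 windows and Dnajb1 held none in its 2 windows. Of all 32851 such windows, 15.1% held a pair of units and 0.603% held 3 units. A match describes these letters only.

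Per kb of exon, Hsp90ab1 had the highest mean level of the 10 genes, 327 ± 69.8 CPM per kb (SD, n = 16 libraries), followed by Hspa8 with 253 ± 63.1 and Hspe1 with 199 ± 210. Hspa1b had 132 ± 83.3, Hspa1a 117 ± 49.8 and Hsp90aa1 94.7 ± 51.4 CPM per kb. The lowest were Hspb1 with 53.9 ± 41.1, Dnajb1 with 40.9 ± 15.5, Dnaja1 with 31.7 ± 4.94 and Hsph1 with 4.20 ± 1.92 CPM per kb. Neighbours in this order lay within each other's spread except Hsph1, whose highest library (9.41 CPM per kb) was below the lowest of every other gene. Together the 10 genes took 0.294% to 0.528% of the counts of a library. This share was 0.294% to 0.332% in 5xFAD, 0.340% to 0.528% in WT, 0.414% to 0.474% in the libraries labelled Card9-/- and 0.333% to 0.451% in those labelled Card9-/-5xFAD. The 5xFAD libraries were the lowest of the 16, though their highest was close to the lowest of Card9-/-5xFAD.

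**Figure D1:**
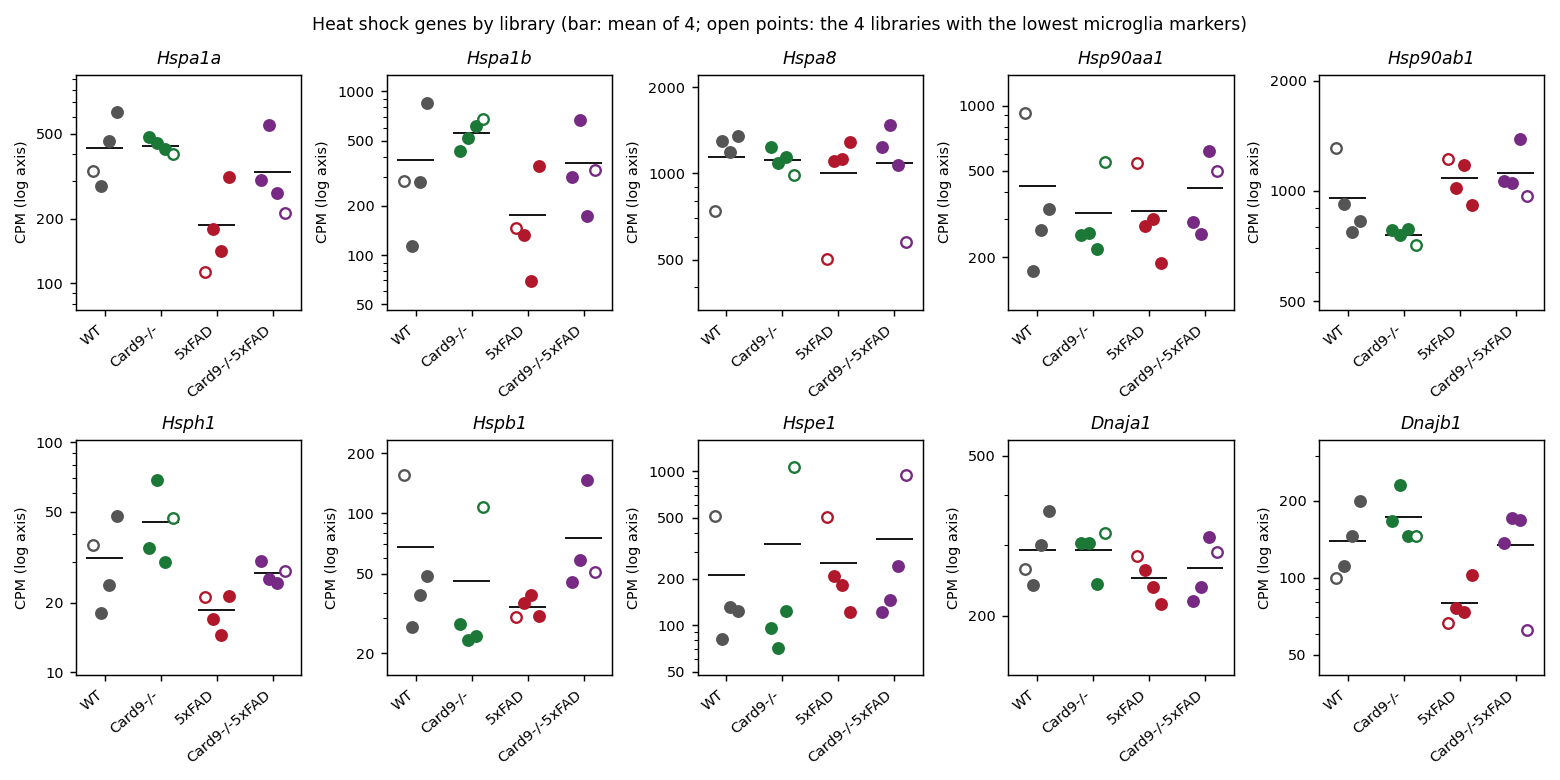
CPM of the 10 heat shock genes in the 16 libraries, on log axes, with 1 panel per gene, 1 point per library and a bar at the mean of 4. Open points are the 4 libraries with the lowest microglia markers. Hspa1a, Hspa1b, Hsph1 and Dnajb1 sit lowest in 5xFAD, and Hspe1 is high in each open point (505.6 to 1066 CPM).

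Hspa1a and Hspa1b encode the stress-inducible Hsp70 and are neighbouring genes without introns on chromosome 17 (Hspa1a at 34969190 to 34972156 and Hspa1b at 34956436 to 34959238, minus strand, GENCODE M21 on GRCm38). Hspa1a was at 333.3, 285.5, 463.3 and 629.0 CPM in WT replicates 1 to 4 and at 483.9, 452.6, 421.8 and 399.4 CPM in the libraries labelled Card9-/-. It was at 112.8, 180.0, 142.1 and 313.8 CPM in 5xFAD and at 304.2, 545.4, 262.6 and 212.3 CPM in those labelled Card9-/-5xFAD. The 5xFAD libraries were thus the lowest as a group, but the highest of them overlapped the WT range. Hspa1b spread more widely, at 284.7, 113.1, 278.2 and 845.1 CPM in WT and 147.3, 132.3, 69.6 and 350.8 CPM in 5xFAD. It was at 430.5, 519.1, 614.7 and 677.1 CPM in the libraries labelled Card9-/- and at 300.7, 667.6, 173.6 and 329.2 CPM in those labelled Card9-/-5xFAD. The ratio of Hspa1b to Hspa1a ran from 0.396 in WT replicate 2 to 1.70 in Card9-/- replicate 4. Reads are hard to place between the 2 genes, since 62.3% of the 50-base windows of the Hspa1b transcript also stood in Hspa1a and 58.8% of those of Hspa1a in Hspa1b. Their sum ran from 211.7 to 664.6 CPM in 5xFAD and from 398.5 to 1474 CPM in WT.

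Hspa8 encodes the constitutive Hsc70, which also uncoats clathrin vesicles and feeds chaperone-mediated autophagy (chromosome 9, 40800984 to 40810087, plus strand). It was at 738.7, 1294, 1189 and 1351 CPM in WT and at 1240, 1091, 1140 and 989.6 CPM in the libraries labelled Card9-/-. In 5xFAD it was at 500.8, 1109, 1124 and 1286 CPM and in those labelled Card9-/-5xFAD at 1235, 1479, 1071 and 573.5 CPM. The 4 genotypes overlapped throughout, and in each the lowest library was the one with the lowest microglia markers. Processed copies share 74.8% of the 50-base windows of its transcript, most of them in Gm15459, so the counts of Hspa8 depend on how shared reads were treated.

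The partners of Hsp70 are the J proteins Dnajb1 and Dnaja1 and the exchange factor Hsph1 (Hsp110). Dnajb1 (chromosome 8, 83608193 to 83612653, plus strand) was at 99.8, 110.6, 145.4 and 198.9 CPM in WT and at 66.4, 75.9, 73.2 and 102.1 CPM in 5xFAD, with an overlap of 1 library on each side. In the libraries labelled Card9-/- it was at 167.0, 230.3, 145.9 and 145.2 CPM, and in those labelled Card9-/-5xFAD at 136.9, 170.3, 168.4 and 62.5 CPM. The last of these, replicate 4, was the lowest of all 16 libraries, while the other 3 of its genotype were above every 5xFAD library. Hsph1 (chromosome 5, 149614287 to 149636376, minus strand) was at 35.9, 18.1, 23.8 and 47.9 CPM in WT and at 21.2, 17.0, 14.6 and 21.5 CPM in 5xFAD. It was at 34.6, 68.4, 30.3 and 46.8 CPM in the libraries labelled Card9-/- and at 30.5, 25.4, 24.3 and 27.6 CPM in those labelled Card9-/-5xFAD. No Hsph1 window of 50 bases stood in another gene, while 0.441% of those of Dnajb1 and 28.8% of those of Dnaja1 did. Dnaja1 (chromosome 4, 40722150 to 40737149, plus strand) had the narrowest range, 213.7 to 365.5 CPM over all 16 libraries, and its genotypes overlapped.

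Hsp90aa1 encodes the inducible and Hsp90ab1 the constitutive cytosolic Hsp90. Hsp90aa1 (chromosome 12, 110690605 to 110702728, minus strand) was at 926.4, 172.0, 267.4 and 334.5 CPM in WT and at 544.3, 278.3, 301.6 and 188.5 CPM in 5xFAD. It was at 254.5, 258.5, 219.4 and 546.6 CPM in the libraries labelled Card9-/- and at 292.0, 256.9, 617.5 and 498.6 CPM in those labelled Card9-/-5xFAD. Every genotype overlapped the others, and each held at least 1 library at 544.3 CPM or above. Hsp90ab1 (chromosome 17, 45567775 to 45573271, minus strand) behaved differently, at 782.4, 756.3, 785.2 and 712.2 CPM in the libraries labelled Card9-/- and 1067, 1050, 1385 and 969.2 CPM in those labelled Card9-/-5xFAD, with no overlap. It was at 1313, 923.7, 770.7 and 827.3 CPM in WT and at 1218, 1016, 1178 and 918.2 CPM in 5xFAD, where the ranges overlapped. Other transcripts held 58.5% of the 50-base windows of Hsp90aa1 and 4.49% of those of Hsp90ab1.

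Hspb1 encodes the small heat shock protein Hsp25, which holds unfolded proteins and binds actin (chromosome 5, 135887919 to 135889563, plus strand). It was at 155.5, 26.9, 39.3 and 48.8 CPM in WT and at 30.3, 35.6, 38.9 and 30.8 CPM in 5xFAD. It was at 28.0, 23.3, 24.2 and 107.3 CPM in the libraries labelled Card9-/- and at 45.3, 58.3, 146.5 and 50.9 CPM in those labelled Card9-/-5xFAD. All Card9-/-5xFAD libraries were above all 5xFAD libraries. Hspe1 encodes Hsp10, the lid of the mitochondrial Hsp60 chaperonin (chromosome 1, 55088132 to 55091307, plus strand). It was at 513.6, 80.9, 132.0 and 124.4 CPM in WT and at 505.6, 207.9, 182.9 and 122.2 CPM in 5xFAD. In the libraries labelled Card9-/- it was at 95.8, 71.4, 123.4 and 1066 CPM, and in those labelled Card9-/-5xFAD at 122.9, 146.6, 243.3 and 948.3 CPM. The 4 highest values were those of the 4 libraries with the lowest microglia markers. Hspd1, which encodes Hsp60 and overlaps Hspe1 on the opposite strand, stayed between 111.9 and 213.6 CPM in all 16 libraries. The strand setting of the counting is not given. Of the 50-base windows of the Hspb1 transcript, 51.6% also stood in Hsp25-ps1. Other genes held 44.8% of those of Hspe1, so the counts of both genes depend on how shared reads were treated.

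The first comparison, 5xFAD against WT, asks what the transgenes changed with Card9 intact. 8 of the 10 genes had lower and 2 had higher fitted levels in 5xFAD, with a median log2 fold change of -0.57 over the 10 against -0.15 over all genes tested. The median was -0.20 without the 4 libraries of lowest microglia markers, -0.32 without WT replicate 1 and -0.37 with Hspa1a and Hspa1b, whose reads are hard to separate, counted as 1 gene. In edgeR's quasi-likelihood test of all 16 libraries, with Benjamini-Hochberg adjustment over all genes, 0 of 10 passed the false discovery rate (FDR) of 0.1, which 2.09% of all genes passed. At an unadjusted p under 0.05, 3 of 10 passed and 10.8% of all genes did, and 0 of 10 had ranges that did not overlap, against 8.04% of all genes. Without WT replicate 4, 5xFAD replicate 2 or 5xFAD replicate 3 the count at this p was 1 of 10, beside 7.11%, 7.67% and 7.72% of all genes. Without WT replicate 2 it was 4 of 10, beside 10.2% of all genes. The 3 were Hspa1a, with a log2 fold change of -1.19 (SE 0.37, 95% interval -1.99 to -0.40, edgeR adjusted p 0.188), Dnajb1, with -0.80 (SE 0.33, edgeR adjusted p 0.366), and Hsph1, with -0.76 (SE 0.32, edgeR adjusted p 0.394). Hspa1b had a similar fitted value with a wider error, -1.12 (SE 0.58, interval -2.34 to 0.10), and the sum of Hspa1a and Hspa1b gave -1.16 (SE 0.45, edgeR adjusted p 0.325). Hspb1 was at -0.99 (SE 0.59) and Hsp90aa1 at -0.37 (SE 0.50), both with intervals across 0. The other 4 genes, Hspa8, Dnaja1, Hsp90ab1 and Hspe1, lay between -0.23 and 0.26. In bulk RNA, fewer cells that express a gene and less RNA per cell cannot be told apart. The border-associated macrophage markers summed to 880 to 1432 CPM in WT and 515 to 646 CPM in 5xFAD, and the neuron markers to 5.41 to 9.86 CPM and 3.40 to 5.07 CPM, both with no overlap, and their part in the heat shock values was not tested.

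The Hspa1a and Dnajb1 calls depended on the fit. Libraries of WT and 5xFAD with the same replicate number deviated together from their genotype means, and Hspa1a, Hspa8, Hsph1 and Dnajb1 were lower in 5xFAD in all 4 pairs. With the replicate number as a block within each Card9 label, 4 of 10 genes were called, while 16% of all genes were. These were Hspa1a at -1.23 (SE 0.24, edgeR adjusted p 0.00764), Dnajb1 at -0.77 (SE 0.21, edgeR adjusted p 0.0441), Hsph1 at -0.68 (SE 0.24, edgeR adjusted p 0.0890) and Hspa1b at -1.004 (SE 0.36, edgeR adjusted p 0.0981). The pairing is read from the data, and within the 3 pairs that hold none of the 4 libraries of lowest microglia markers the correlations were -0.08 to 0.41. DESeq2 on all 16 libraries gave Hspa1a -1.13 (SE 0.36, DESeq2 adjusted p 0.0665) and called 3.24% of the genes with an adjusted p. Without the 4 libraries of lowest microglia markers, edgeR gave Dnajb1 -0.82 (SE 0.25, edgeR adjusted p 0.0880) and Hspa1a -1.08 (SE 0.35, edgeR adjusted p 0.103), while 7.97% of all genes were called. With the length slope of each library as a covariate, which is the slope of its expression on transcript length, Hspa1a was called at -0.97 (SE 0.28, edgeR adjusted p 0.0687) beside 6.33% of all genes. The alternatives with 12 libraries, with the length slope and with the block within each Card9 label were chosen after the data were seen.

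**Figure D2:**
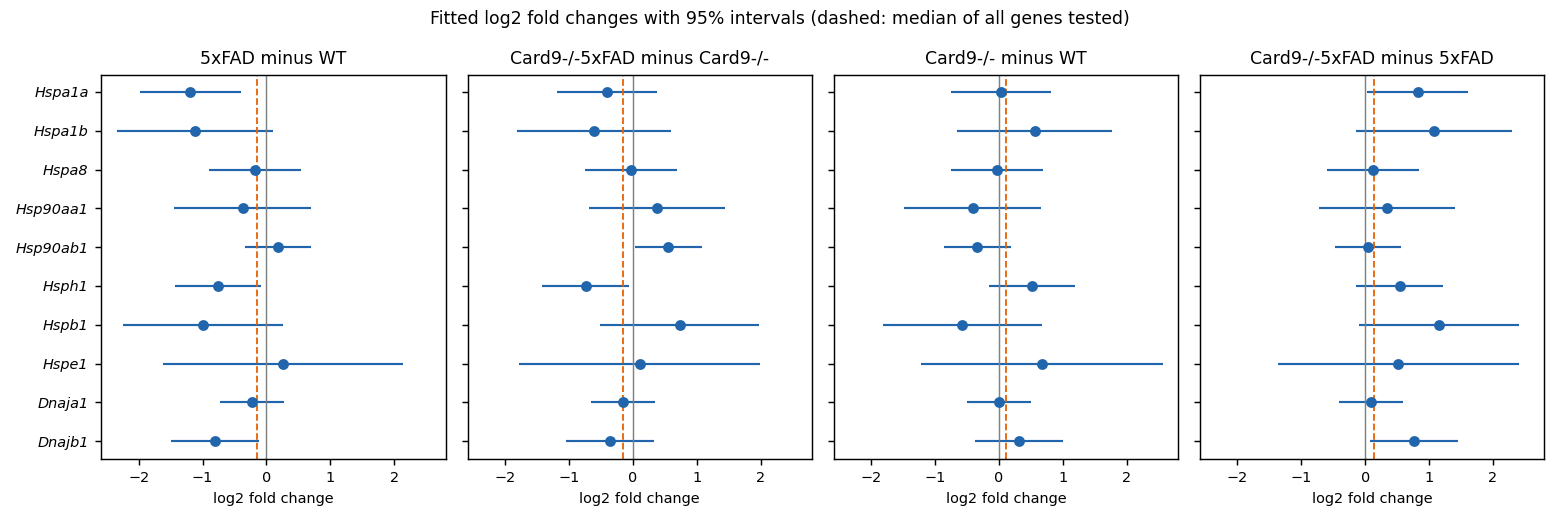
Fitted log2 fold changes of the 10 genes in 4 comparisons, with 95% intervals from the edgeR fit of 16 libraries, a solid line at 0 and a dashed line at the median of all genes tested. Hspa1a, Hsph1 and Dnajb1 have intervals below 0 in 5xFAD against WT, and all 10 points are above 0 in Card9-/-5xFAD against 5xFAD.

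The change with the same transgenes was also measured on the deletion background, as Card9-/-5xFAD against Card9-/-. Here 4 of 10 genes had higher and 6 had lower fitted levels, with a median of -0.09 against -0.15 over all genes. 0 of 10 passed the FDR of 0.1, which 1.97% of all genes passed. At an unadjusted p under 0.05 the count was 2 of 10, against 12.2% of all genes. It was 0 of 10 without Card9-/- replicate 2, Card9-/-5xFAD replicate 2 or Card9-/-5xFAD replicate 3, against 8.32%, 11.7% and 8.96% of all genes. The median was 0.07 against -0.01 over all genes without 5xFAD replicate 4, a library outside this comparison but in the same fit. Hsp90ab1 was higher, with a log2 fold change of 0.56 (SE 0.25, interval 0.04 to 1.08, edgeR adjusted p 0.358), and it was the 1 gene of 10 whose ranges did not overlap, as in 7.01% of all genes. Hsph1 was lower, at -0.74 (SE 0.32, edgeR adjusted p 0.346), close to its value of -0.76 in the comparison with Card9 intact. DESeq2 on all 16 libraries called Hsp90ab1, at 0.63 (SE 0.22, DESeq2 adjusted p 0.0862), and 4.82% of genes. Without the 4 libraries of lowest microglia markers, edgeR called Hsp90ab1 at 0.62 (SE 0.19, edgeR adjusted p 0.0632) and Hspb1 at 1.76 (SE 0.38, edgeR adjusted p 0.0165), while 16.7% of all genes were called. Hspb1 was at 0.73 (SE 0.59) with all libraries, and the library left out of the Card9-/- group held its highest value there, 107.3 CPM. With the replicate number as a block within each Card9 label, edgeR called Hsp90ab1 at 0.55 (SE 0.18, edgeR adjusted p 0.0677), higher in all 4 pairs, and Hsph1 at -0.67 (SE 0.24, edgeR adjusted p 0.0791), lower in all 4 pairs, while 20.4% of all genes were called. Here the pairs without the 4 libraries correlated at 0.07 to 0.30.

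Card9-/- against WT compared the genotypes without transgenes. 6 of 10 genes were fitted higher and 4 lower in the libraries labelled Card9-/-, with a median of 0.02 against 0.11 over all genes. No gene passed the FDR of 0.1 in edgeR, 0% of all genes, while 597 genes (4.11%) had an unadjusted p under 0.05. DESeq2 called 5 on all 16 libraries and 8 on only the groups compared. Of the heat shock genes, 0 of 10 had an unadjusted p under 0.05, and 0 of 10 had ranges that did not overlap, against 2.66% of all genes. At this p the count was 2 of 10 without WT replicate 4, beside 7.45% of all genes. It was 1 of 10 without Card9-/- replicate 4, beside 6.43%. The values farthest from 0 were those of Hspe1, 0.67 (SE 0.89), Hspb1, -0.58 (SE 0.59), Hspa1b, 0.56 (SE 0.57), and Hsph1, 0.52 (SE 0.32). The interval for Hspa1a was -0.74 to 0.82 and that for Dnaja1 -0.50 to 0.50.

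Card9-/-5xFAD against 5xFAD asked what the labelled deletion changed with amyloid. All 10 genes were fitted higher in Card9-/-5xFAD, with a median of 0.53 against 0.14 over all genes (0.30 against 0.01 without 5xFAD replicate 4), though Hsp90ab1 was fitted lower with DESeq2 or its size factors (-0.01) and with 10 counts in every library (-0.05), Hspa8 with the length slope (-0.07) and Hspe1 without the 4 libraries (-0.01). In edgeR 0 of 10 and 0% of all genes passed the FDR of 0.1, while 366 genes had an unadjusted p under 0.05. DESeq2 called 2 genes on all 16 libraries and 9 on only the groups compared, none of them a heat shock gene. The unadjusted p was under 0.05 for 2 of 10 genes, against 2.52% of all genes. These were Hspa1a, at 0.82 (SE 0.37, interval 0.03 to 1.61, edgeR adjusted p 0.993), and Dnajb1, at 0.76 (SE 0.33, interval 0.07 to 1.46, edgeR adjusted p 0.993). The count was 0 of 10 without 5xFAD replicate 1, 2 or 3 or Card9-/-5xFAD replicate 1 or 2, against 1.37% to 2.72% of all genes. It was 3 of 10 without WT replicate 1, WT replicate 4 or Card9-/- replicate 4, against 2.69%, 2.35% and 3.34%. Ranges did not overlap for 2 of 10, Hsph1 at 0.54 (SE 0.32) and Hspb1 at 1.15 (SE 0.59), against 1.89% of all genes. Hspa1b was at 1.07 (SE 0.58, interval -0.15 to 2.29). This comparison shares its 5xFAD libraries with that against WT, in which the same libraries were the low group.

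The interaction asked whether the transgene change differed with the Card9 label. The fitted interaction was above 0 for 9 of 10 genes, with a median of 0.42 against 0.02 over all genes. Without WT replicate 4 it was above 0 for 7 of 10 with a median of 0.14, and the median was 0.26 without WT replicate 1 and 0.22 without Card9-/-5xFAD replicate 2. 0 of 10 and 0% of all genes passed the FDR of 0.1 in edgeR, 78 genes (0.537%) had an unadjusted p under 0.05, and DESeq2 called 1. Among the 10, 0 had an unadjusted p under 0.05. Hspb1 was nearest, at 1.73 (SE 0.83, interval -0.04 to 3.49, edgeR unadjusted p 0.0543). Its unadjusted p was 0.0453 with DESeq2, 0.0200 with no filter, 0.00796 with the length slope and 0.00410 without the 4 libraries, at fitted values of 1.69 to 1.84, and its adjusted p was near 1 in each. In other edgeR fits of all 16 libraries the unadjusted p stayed above 0.05. It was 0.0647 with DESeq2 size factors and 0.0635 with 10 counts in every library. With 1 replicate block over all libraries it was 0.0802, and with the block within each Card9 label 0.0505. With 1 library left out, the fitted value of Hspb1 ran from 0.92 (without WT replicate 1) to 2.57. Without WT replicate 2 or 3 or Card9-/- replicate 4, 1 of 10 genes had an unadjusted p under 0.05. The same count was found without 5xFAD replicate 4 and without Card9-/-5xFAD replicate 1 or 4. In these fits 0.533% to 1.49% of all genes had such a p. Hspa1a was at 0.78 (SE 0.52, interval -0.32 to 1.89), and with the block within each Card9 label at 0.73 (SE 0.33, edgeR unadjusted p 0.0442, adjusted p 1). The Hspa1a and Dnajb1 changes with the transgenes were thus not shown to differ between the Card9 labels.

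Most of the spread of several heat shock genes lay between libraries of 1 genotype. The share of the sum of squares of log2 CPM within genotypes was 95.0% for Hspe1, 94.9% for Hspa8 and 94.4% for Hsp90aa1. It was 79.2% for Dnaja1, 77.2% for Hspb1, 55.5% for Hspa1b, 49.2% for Dnajb1, 45.5% for Hsp90ab1, 42.8% for Hsph1 and 40.7% for Hspa1a. The median over the 10 was 66.3%, against 79.2% over all genes tested. Without the 4 libraries of lowest microglia markers the median over the 10 was 47.4%, and the share over all genes was not computed there. Without these 4 the share was 47.5% for Hspe1, 35.3% for Hspb1, 26.3% for Dnajb1 and 24.9% for Hsp90ab1, and 77.4% for Hspa8 and 71.6% for Hsp90aa1. Within a genotype, the highest library exceeded the lowest by up to 14.9-fold for Hspe1 (Card9-/-), 7.48-fold for Hspa1b (WT) and 5.79-fold for Hspb1 (WT). For Dnaja1 the largest such ratio was 1.53-fold (WT). The SD within genotypes was 1.32 on the log2 scale for Hspe1, at percentile 94.3 of all genes tested, and 0.22 for Dnaja1 and 0.23 for Hsp90ab1, at percentiles 1.36 and 1.56.

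**Figure D3:**
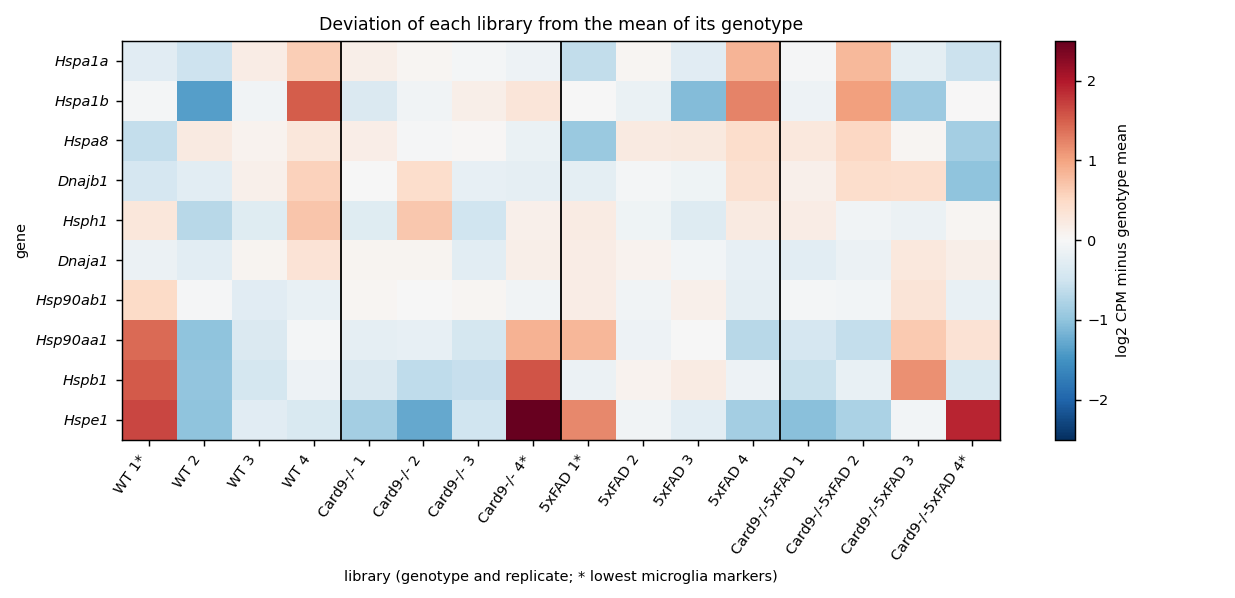
Deviation of each library from the mean of its genotype, in log2 CPM, for the 10 heat shock genes (rows) in 16 libraries (columns), with stars at the 4 libraries of lowest microglia markers. In the starred columns Hspe1 and Hsp90aa1 are above and Hspa8, Hspa1a and Dnajb1 below their genotype means.

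The 4 libraries of lowest microglia markers did not have high heat shock RNA in general. Hspe1 was at 505.6 to 1066 CPM in these 4 and at 71.4 to 243.3 CPM in the other 12, with no overlap, and its mean difference within genotypes was 2.46 on the log2 scale (1.60 to 3.49 over the 4 genotypes). Hsp90aa1 was higher in all 4 genotypes as well, by 1.16 on the log2 scale (0.47 to 1.90), and Hsph1 by 0.22 (0.05 to 0.38). Hspa8 was at 500.8 to 989.6 CPM against 1071 to 1479 CPM, also with no overlap, and was lower in all 4 genotypes, with a mean difference of -0.84 (-1.22 to -0.22). Hspa1a was lower in all 4, at -0.53 (-0.83 to -0.18), as was Dnajb1, at -0.63 (-1.33 to -0.29). Hspa1b, Hsp90ab1 and Hspb1 were higher in 2 genotypes and lower in the other 2. The ratio of Hspe1 to Hspa8 was 0.695 to 1.65 in the 4 libraries and 0.0625 to 0.227 in the other 12. These differences are descriptions with no test, since the 4 libraries were picked from the data.

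Other features moved with them. The 8 genes of the TRiC chaperonin, which folds actin and tubulin, summed to 626 to 729 CPM in the 4 libraries and to 1115 to 1552 CPM in the other 12, and the B cell markers to 392 to 471 CPM against 603 to 1150 CPM. The 8 mitochondrial chaperone genes other than Hspe1 and Hspd1 overlapped, at 442 to 618 CPM against 447 to 586 CPM. The length slope was -0.22 to -0.14 in the 4 libraries and -0.16 to 0.29 in the other 12. Monocyte markers summed to 219 to 400 CPM against 70.4 to 316 CPM, border-associated macrophage markers to 646 to 1695 CPM against 370 to 1098 CPM, and astrocyte markers to 257 to 480 CPM against 173 to 261 CPM. T or NK cell markers overlapped (61.3 to 376 CPM against 26.1 to 181 CPM), as did endothelial markers (78.6 to 154 CPM against 35.2 to 108 CPM) and oligodendrocyte markers (192 to 392 CPM against 282 to 944 CPM). Of the red blood cell list, 2 of 6 genes were in the table and their sum was at most 0.882 CPM. The part of other cells, depth or RNA quality in the heat shock values was not tested.

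**Figure D4:**
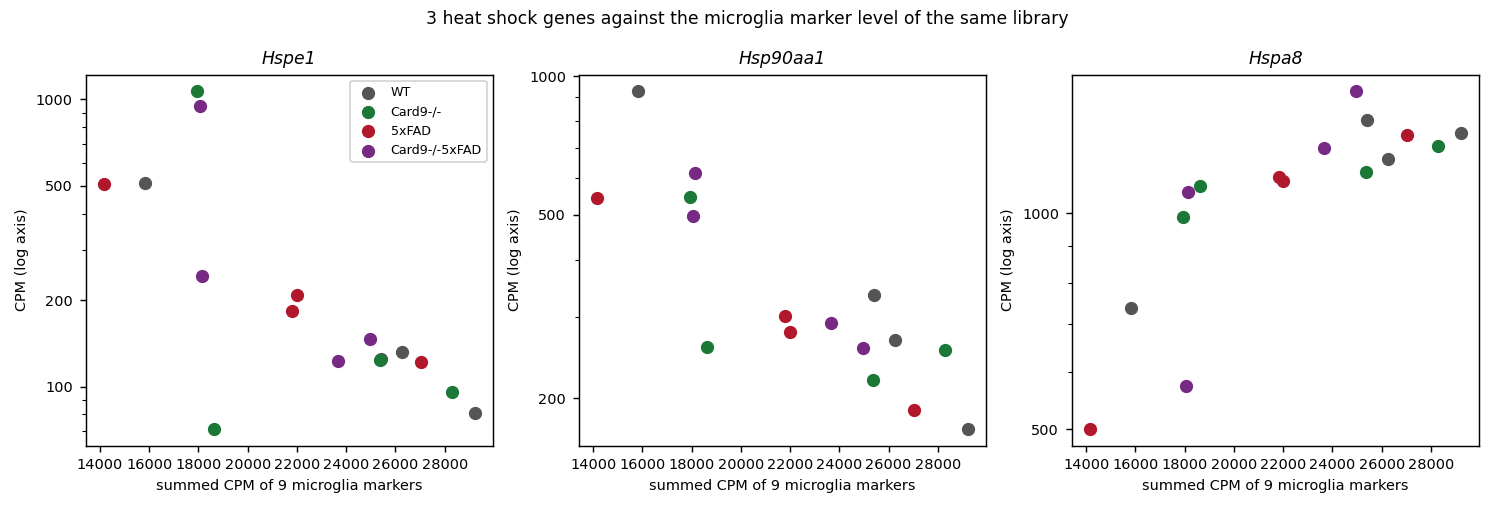
CPM of Hspe1, Hsp90aa1 and Hspa8 (log axes) against the summed CPM of 9 microglia markers in the same library, with 1 point per library coloured by genotype. The 4 libraries at 14164 to 18067 CPM of markers hold the highest Hspe1 and the lowest Hspa8 values, and the other 12 lie to the right, the nearest at 18140 CPM.

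The relations among the genes were measured across libraries. With genotype means subtracted, 29 relations were computed, of the other 9 genes with Hspa1a, of all 10 with the mean of 40 early response genes and of all 10 with the log2 library total. P-values come from 100000 permutations within genotypes (two-sided) with Benjamini-Hochberg adjustment over the 29, and 6 relations had an adjusted p under 0.1. This count was 0 without WT replicate 1, 3 without Card9-/- replicate 4 and 10 without WT replicate 2. Hspa1a varied with Dnajb1, with Pearson's r = 0.728 (permutation p 0.00585, adjusted 0.0424) and Spearman's rho = 0.777 (permutation p 0.00133, adjusted 0.0338). Without the 2 libraries farthest from the median of Hspa1a r was 0.698, and in the 12 libraries it was 0.674 (permutation p 0.0403, adjusted 0.275). Hspa1a and Hspa1b had r = 0.756 (permutation p 0.0102, adjusted 0.0493), but rho was 0.397 (permutation p 0.203, adjusted 0.392), and r was 0.607 without the 2 libraries farthest from the median. In the 12 libraries their r was 0.948 (permutation p 0.00462, adjusted 0.0670), for a pair of genes whose reads are hard to separate.

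The relations of Hspe1, Hsp90aa1 and Hspa8 with the library total passed over 16 libraries. For Hspe1 and Hspa8 the 4 libraries of lowest microglia markers stand apart, so only the values within the 12 are given. Hsp90aa1 overlapped between the 4 and the 12. Over 16 libraries it had r = -0.653 (permutation p 0.00318, adjusted 0.0424) and rho = -0.7265 (permutation p 0.00279, adjusted 0.0338), with r = -0.618 without the 2 farthest libraries. Within the 12, r was -0.546 for Hspe1 (permutation p 0.130, adjusted 0.437), -0.528 for Hsp90aa1 (permutation p 0.0469, adjusted 0.275) and -0.00205 for Hspa8 (permutation p 0.994, adjusted 0.995). None of these 3 passed the adjustment within the 12. Hspb1 had r = -0.664 with the total in the 12 libraries (permutation p 0.00139, adjusted 0.0403), and over 16 libraries r = -0.652 (permutation p 0.0260, adjusted 0.103), rho = -0.671 (permutation p 0.00961, adjusted 0.0465) and r = -0.707 without the 2 farthest libraries.

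The early response genes, such as Fos, Jun and Egr1, are transcribed within minutes of a stimulus, and were compared as another class that dissociation induces. Hspb1 alone of the 10 followed their mean past the adjustment over 16 libraries, with r = 0.700 (permutation p 0.00459, adjusted 0.0424), rho = 0.662 (permutation p 0.00466, adjusted 0.0338) and r = 0.660 without the 2 farthest libraries. In the 12 libraries r was 0.271 (permutation p 0.310, adjusted 0.748), so it did not hold within the 12. Hspa1a, the classical inducible gene, had r = 0.295 with the early response mean (permutation p 0.281, adjusted 0.461), rho = 0.235 (permutation p 0.420, adjusted 0.761) and r = 0.215 without the 2 farthest libraries.

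As a description over the 12 libraries, with the normalization of all 16 kept, Hsp90aa1 moved with Hspb1 (r = 0.906), Dnaja1 (r = 0.886) and Hspe1 (r = 0.739), and Dnajb1 with Hsph1 (r = 0.866). Over all 16 libraries these r were 0.808, 0.497, 0.821 and 0.330. Hspa8 and Hsp90aa1 ran against each other in the 12 (r = -0.653), as did Hspa1a and Hsp90ab1 (r = -0.757). Over all 16 these r were -0.731 and -0.482. These are some of the pairs among the 10 genes. These points share library, depth and total, and genes of 1 library are not independent. Among 9106 genes with a mean of at least 10 CPM, those most like the mean of the 10 genes over the 16 libraries were Runx1 (r = 0.882), Rnf20 (r = 0.830), Per1 (r = 0.820), Gm16575 (r = 0.817) and Tent5a (r = 0.817). They were picked as the highest r and were not tested. The mean also joins genes that ran against each other, such as Hspa8 and Hspe1 (r = -0.756 over 16 libraries).

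Other chaperone lists were measured in the same comparisons, and a difference between a list and the 10 genes was not tested. In 5xFAD against WT 11 of 15 endoplasmic reticulum chaperones, which fold secreted proteins, were fitted higher, with a median log2 fold change of 0.29. Of the 15, 1 passed the FDR of 0.1, beside 2.09% of all genes. This was Sdf2l1, a cofactor of the reticulum Hsp70, at 260.5 to 449.9 CPM in WT and 726.8 to 1284 CPM in 5xFAD (log2 fold change 1.44, SE 0.38, edgeR adjusted p 0.0877). In Card9-/-5xFAD against Card9-/- they were fitted higher in 12 of 15 (median 0.24, 0 called), with Sdf2l1 at 1.26 (SE 0.38, edgeR adjusted p 0.150) and Manf, a secreted stress protein, at 0.74 (SE 0.39). Sdf2l1 was at 107.0 to 304.5 CPM in the libraries labelled Card9-/- and at 247.9 to 815.9 CPM in those labelled Card9-/-5xFAD. Without transgenes, Manf was at -0.90 (SE 0.39) and Sdf2l1 at -0.70 (SE 0.38), and with them Sdf2l1 was at -0.88 (SE 0.38) and Creld2 at -0.65 (SE 0.34), with 0 of 15 called in either comparison of Card9 labels.

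Dnajb14, a J protein of the reticulum membrane, was the 1 called gene of the 16 other J proteins and Hsp70s in both transgene comparisons. Of all genes, 2.09% were called in 5xFAD against WT and 1.97% in Card9-/-5xFAD against Card9-/-. Dnajb14 had the following levels. It was at 34.6 to 55.6 CPM in WT and 101.3 to 117.7 CPM in 5xFAD (log2 fold change 1.23, SE 0.25, edgeR adjusted p 0.0178). It was at 41.4 to 69.4 CPM in the libraries labelled Card9-/- and 89.0 to 155.1 CPM in those labelled Card9-/-5xFAD (log2 fold change 1.13, SE 0.25, edgeR adjusted p 0.0375). Neither pair of groups overlapped, as in 8.04% and 7.01% of all genes. The list as a whole was balanced, with 7 of 16 higher in each (medians -0.09 and -0.09). In the comparisons of Card9 labels 0 of 16 were called, with the lowest unadjusted p for Dnajb2 (0.52, SE 0.36) and Dnajc2 (-0.39, SE 0.31) without transgenes and for Dnajc5 (0.49, SE 0.29) and Dnajc13 (0.48, SE 0.32) with them.

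A list of cochaperones and partners, only some of them known to be driven by HSF1, was split. In it 11 of 22 were fitted higher in 5xFAD against WT (median 0.05) and 12 of 22 in Card9-/-5xFAD against Card9-/- (median 0.05), and 0 were called in any comparison. Chordc1, an Hsp90 cochaperone, was at 75.9 to 78.0 CPM in WT and 43.1 to 67.2 CPM in 5xFAD (log2 fold change -0.50, SE 0.21, edgeR adjusted p 0.395), and Hspd1 was at 0.48 (SE 0.23, edgeR adjusted p 0.455). Ubb, a ubiquitin gene, was at 0.88 (SE 0.32, edgeR adjusted p 0.239) and Cacybp at 0.55 (SE 0.23) in Card9-/-5xFAD against Card9-/-. The small heat shock gene Cryab was at -1.31 (SE 0.56) and Hspb8 at -1.38 (SE 0.79) in Card9-/-5xFAD against 5xFAD, where 8 of 22 were higher (median -0.17). In Card9-/- against WT 7 of 22 were higher (median -0.05), with Cacybp at -0.44 (SE 0.23) and Cryab at -1.05 (SE 0.56).

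Of the heat shock factor list, 3 of 5 genes were tested and 0 called. Hsf1 was at 28.0 to 57.9 CPM in WT and 16.2 to 53.9 CPM in 5xFAD (log2 fold change -0.50, SE 0.46), and Hsbp1, whose protein binds HSF1, was at 0.44 (SE 0.45). Hsf2 was at 0.83 (SE 0.35, edgeR adjusted p 0.970) and Hsf1 at 0.69 (SE 0.46) in Card9-/- against WT, and at -0.63 (SE 0.36) and -0.84 (SE 0.47) in Card9-/-5xFAD against Card9-/-. In Card9-/-5xFAD against 5xFAD they were at 0.44 (SE 0.36) and 0.34 (SE 0.46). The summed level of this list was 697 to 1217 CPM in the 4 libraries of lowest microglia markers and 304 to 731 CPM in the other 12. Most of this sum was Hsbp1, with genotype means of 464 to 675 CPM. The genotype means were 26.3 to 59.8 CPM for Hsf1 and 6.86 to 14.4 CPM for Hsf2, so the sum does not describe these factors. Of the mitochondrial chaperones and of TRiC, 0 of 8 were called in each comparison. Among them Hscb was at 1.44 (SE 0.49, edgeR adjusted p 0.205) and Cct2 at 0.42 (SE 0.22) in Card9-/-5xFAD against Card9-/-, and Hscb at 0.77 (SE 0.48) and Cct2 at 0.29 (SE 0.22) in 5xFAD against WT.

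**Figure D5:**
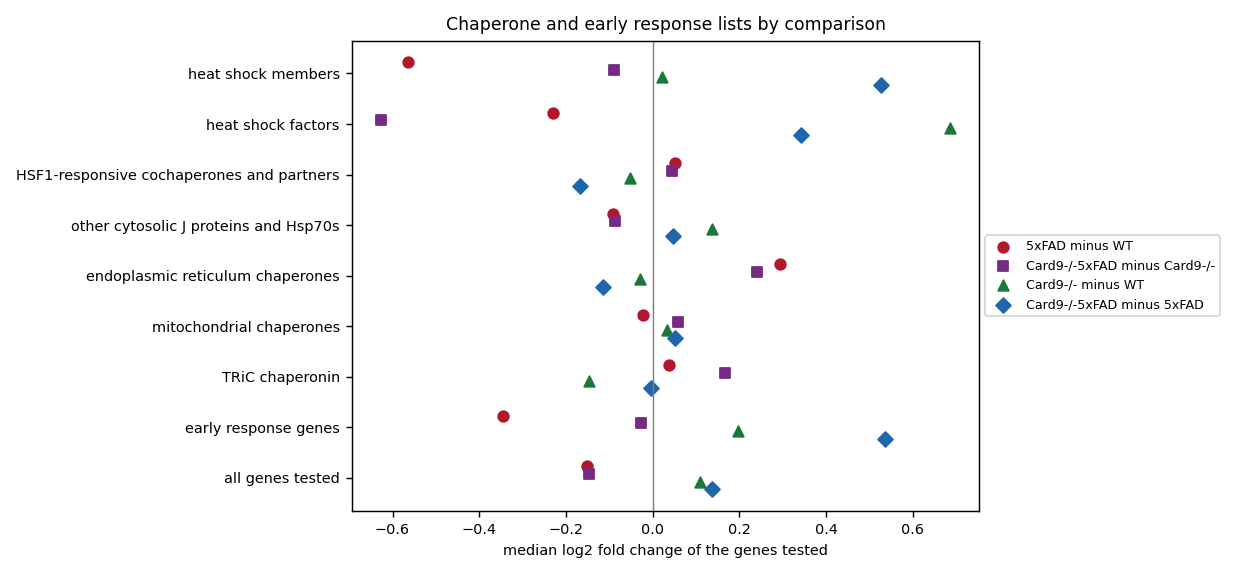
Median log2 fold change of the 10 heat shock genes, 7 other lists and all genes tested in 4 comparisons, with 1 marker per comparison. In 5xFAD against WT the heat shock median is the lowest of the lists (-0.57), in Card9-/-5xFAD against 5xFAD the heat shock and early response medians are the highest (0.53 and 0.54), and the endoplasmic reticulum list lies above 0 in both transgene comparisons.

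The 40 early response genes had the direction of the heat shock genes in these 2 comparisons. In 5xFAD against WT 29 of 40 were fitted lower (median -0.34) and 1 was called, beside 2.09% of all genes. The called gene was Nfkbid, an inhibitor of NF-kB, at 35.3 to 51.9 CPM in WT and 15.1 to 28.3 CPM in 5xFAD (log2 fold change -1.13, SE 0.25, edgeR adjusted p 0.0325). In Card9-/-5xFAD against 5xFAD 38 of 40 were fitted higher (median 0.54) and 0 were called. There Nfkbiz, another NF-kB regulator, was at 44.7 to 73.5 CPM in 5xFAD and 82.1 to 176.9 CPM in the libraries labelled Card9-/-5xFAD (1.25, SE 0.31, edgeR adjusted p 0.993), and Btg2, an antiproliferative gene, was at 1.36 (SE 0.35, edgeR adjusted p 0.993). The counts were 20 higher of 40 in Card9-/-5xFAD against Card9-/- (median -0.03), with Rgs1 at 1.26 (SE 0.34, edgeR adjusted p 0.103) and Nfkbid at -0.81 (SE 0.25, edgeR adjusted p 0.153), and 26 of 40 in Card9-/- against WT (median 0.20), with Nfkbid at 0.46 (SE 0.25) and Egr2 at 0.80 (SE 0.49). In the interaction 33 of 40 were above 0 (median 0.50) and Btg2 was at 1.12 (SE 0.48), with 0 called. Both comparisons that gave the opposite directions hold the same 5xFAD libraries.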

How the data were processed

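The authors aligned reads to mm10 with HISAT2, filtered them with SAMtools and counted them on genes with HTSeq, and deposited the read counts of 16 libraries without normalization. Strand setting, filter settings and tool versions are not given in the sources used here, nor is it stated that each library is 1 mouse, so p-values measure the spread between libraries. Genes were tested with edgeR 4.0.16 (R 4.3.3, quasi-likelihood, 1 fit of 16 libraries, TMM, filterByExpr with a minimum count of 10), adjusted over all genes tested with an FDR of 0.1. CPM use TMM library sizes, and log2 CPM add a prior count of 2. SE were derived from the F statistic. The length slope used the 93.9% of tested genes with a length. DESeq2 1.42.0 and the other alternatives are in the closing section. The fits were tested on simulated data. Total counts of 2970148 to 19333325 limit precision, and no library matched another of its genotype within sampling noise (lowest chi-square per degree of freedom 6.28, 24 pairs). Positions come from GENCODE M21 (GRCm38) and promoters from RefSeq (GRCm38.p6). Mitochondrially encoded genes were not analysed here. 1 listed microglia marker is not reported here and was left out of the marker sum after the results were known, and the 4 libraries of lowest microglia markers were the same ones with it. Same-numbered libraries correlated in their deviations from the genotype means at 0.27 to 0.71 (WT with 5xFAD) and 0.13 to 0.73 (Card9-/- with Card9-/-5xFAD), all 4 pairs over 0.1 in each, but in only 2 of 4 pairs across Card9 labels, so the number was taken as a pairing for the transgene comparisons alone. No label states what a number shares. The members, lists and tests were chosen with earlier results of these data known. Named are all members, Card9, called genes of each list or else the 2 of lowest p, and the 5 genes most like the members' mean. Hspd1 beside Hspe1 was chosen after its values were seen.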

Additional observations from a re-analysis of the deposited data

Results flagged for a closer look

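2 of the 40 groups of 4 libraries (10 genes in 4 genotypes) held a library far from the other 3 by Dixon's ratio of gap to range in log2 CPM, where chance gives about 1 in 20. Hspa8 was at 500.8 CPM in 5xFAD replicate 1, a gap of 0.843 of the range of its genotype, while the other 3 libraries were at 1109 to 1286 CPM. Hspb1 was at 107.3 CPM in Card9-/- replicate 4, a gap of 0.881 of the range, while the other 3 were at 23.3 to 28.0 CPM. Both are among the 4 libraries with the lowest microglia markers, whose part in these values was not tested.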

How the results depend on the processing

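Of the 10 genes, 0 were called in each of the 5 comparisons with DESeq2 size factors in edgeR, no filter, a minimum of 10 counts in every library, an FDR of 0.05, either tool on only the groups compared (not run for the interaction), Hspa1a and Hspa1b summed, and each library left out in turn (0 to 0). In 5xFAD against WT, 1 was called with DESeq2 on all 16 libraries (Hspa1a), 1 without the 4 libraries of lowest microglia markers (Dnajb1) and 1 with the length slope (Hspa1a). In Card9-/-5xFAD against Card9-/-, 1 was called with DESeq2 on all 16 libraries (Hsp90ab1) and 2 without the 4 libraries (Hsp90ab1 and Hspb1). The cause was not tested. The 4 libraries and the length slope were chosen after the data were seen. Over all genes, calls in 5xFAD against WT and Card9-/-5xFAD against Card9-/- were 304 and 286 at first, 1144 and 2394 without the 4 libraries, 918 and 856 with the length slope, 565 and 812 with DESeq2, and 171 and 148 with 10 counts in every library.

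With the replicate number as 1 block over all 16 libraries, 0 of 10 were called in each comparison, and calls over all genes were 306 and 340. With a replicate block within each Card9 label, added after the data were seen, 4 were called in 5xFAD against WT (Hspa1a, Hspa1b, Hsph1 and Dnajb1), 2 in Card9-/-5xFAD against Card9-/- (Hsp90ab1 and Hsph1) and 0 in the interaction, where Hspe1 turned to 0.11, and calls over all genes were 2322 and 2966.

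The 6 relations with an adjusted p under 0.1 became 2 without the 4 libraries, Hspa1b with Hspa1a, which was among the 6, and Hspb1 with the library total, which was not. The count was 0 to 10 with each library left out, namely 0 without WT replicate 1, 10 without WT replicate 2 and 3 without Card9-/- replicate 4. The median share of variance within genotypes fell from 66.3% to 47.4% without the 4 libraries, where the share over all genes was not computed.

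Fitted values that were not called changed sign as follows, and the cause was not tested. With DESeq2 on all 16 libraries, the direction turned for Hspa8 at 0.036 in Card9-/-5xFAD against Card9-/-, Hspa1a at -0.0022 and Dnaja1 at -0.045 in Card9-/- against WT, Hsp90ab1 at -0.0052 in Card9-/-5xFAD against 5xFAD. With DESeq2 on only the groups compared, the direction turned for Hspa8 at 0.044 in Card9-/-5xFAD against Card9-/-, Hspa1a at -0.0037 and Dnaja1 at -0.047 in Card9-/- against WT, Hsp90ab1 at -0.0066 in Card9-/-5xFAD against 5xFAD. With DESeq2 size factors in edgeR, the direction turned for Hspa8 at 0.035 in Card9-/-5xFAD against Card9-/-, Hspa1a at -0.00039 and Dnaja1 at -0.041 in Card9-/- against WT, Hsp90ab1 at -0.0059 in Card9-/-5xFAD against 5xFAD. With at least 10 counts in every library, the direction turned for Hspa8 at 0.097 and Dnaja1 at 0.022 in Card9-/-5xFAD against Card9-/-, Hspa1a at -0.054 and Dnaja1 at -0.10 in Card9-/- against WT, Hsp90ab1 at -0.046 in Card9-/-5xFAD against 5xFAD. With the length slope, the direction turned for Hspa8 at 0.031 and Hspe1 at -0.54 in 5xFAD against WT, Hspa8 at 0.15, Hsp90aa1 at -0.10 and Hspe1 at -0.32 in Card9-/-5xFAD against Card9-/-, Hspa1a at -0.14 and Hsp90aa1 at 0.038 in Card9-/- against WT, Hspa8 at -0.074 in Card9-/-5xFAD against 5xFAD, Hspe1 at 0.22 in the interaction. With no filter on low counts, the direction turned for Dnaja1 at -0.0092 in Card9-/- against WT, Hsph1 at -0.041 in the interaction. Without the 4 libraries of lowest microglia markers, the direction turned for Hsp90aa1 at 0.030 in 5xFAD against WT, Hspa8 at 0.15 in Card9-/-5xFAD against Card9-/-, Hspa1a at -0.017, Hspe1 at -0.21 and Dnaja1 at -0.092 in Card9-/- against WT, Hspe1 at -0.0091 in Card9-/-5xFAD against 5xFAD, Hspe1 at 0.20 in the interaction. With DESeq2 size factors, r turned for Dnaja1 0.0196 with the early response mean. Without the 4 libraries, r turned for Dnaja1 0.0707 with Hspa1a, Hspe1 -0.243 and Dnaja1 0.153 with the early response mean, Hspa1a -0.00818, Hspa1b 0.135, Hspa8 -0.00205, Hsph1 0.268 and Dnajb1 -0.00284 with the library total. With each library left out in turn, directions turned as follows. In 5xFAD against WT the log2 fold change ran from -0.72 to 0.34 for Hsp90aa1, -0.30 to 1.17 for Hspe1, -0.35 to 0.041 for Hspa8 and -0.32 to 0.012 for Dnaja1. In Card9-/- against WT the log2 fold change ran from -0.11 to 0.29 for Hspa1a, -0.80 to 0.30 for Hsp90aa1, -1.42 to 0.23 for Hspb1, -0.12 to 0.13 for Dnaja1, -0.20 to 0.052 for Hspa8 and -1.13 to 1.57 for Hspe1. In the interaction the log2 fold change ran from -0.27 to 0.30 for Hsph1, -1.23 to 1.64 for Hspe1, -0.25 to 0.98 for Hspa1b, -0.046 to 0.17 for Dnaja1 and -0.071 to 0.37 for Hspa8. In Card9-/-5xFAD against Card9-/- the log2 fold change ran from -0.22 to 0.18 for Hspa8, -0.97 to 1.90 for Hspe1 and -0.25 to 0.023 for Dnaja1. In Card9-/-5xFAD against 5xFAD the log2 fold change ran from -0.11 to 0.33 for Hspa8, -0.15 to 0.11 for Hsp90ab1, -0.11 to 0.16 for Dnaja1 and -0.57 to 1.07 for Hspe1. The range of r with the early response mean ran from -0.0736 to 0.453 for Hsp90ab1, -0.247 to 0.158 for Dnaja1, -0.373 to 0.466 for Hspe1, -0.225 to 0.282 for Hspa1b and -0.0158 to 0.368 for Hsph1. The range of r with the library total ran from -0.231 to 0.222 for Hsp90ab1, -0.34 to 0.142 for Hsph1 and -0.0901 to 0.139 for Hspa1b. The range of r with Hspa1a ran from -0.37 to 0.065 for Dnaja1. The direction held for the other log2 fold changes and relations. With 4 libraries a genotype, intervals of the less even genes stayed wide.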
